A study of Mus musculus with 24 samples.

Results

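Msx1, Msx2, Alx1, Alx4, Prrx1, Prrx2, Dlx1, Dlx2 and Dlx5 encode homeodomain transcription factors of the Msx, Alx, Prrx and Dlx families. They were followed in dermal papilla (DP) cells, the mesenchymal cells at the base of the hair follicle that signal to the hair-forming epithelium, with and without ablation of the histone deacetylases Hdac1 and Hdac2. The members are the 9 of the 25755 genes in the deposited tables whose symbol is one of these names, and each had a single row. DP cells of single mice were sorted for YFP, sorted again, and their RNA was sequenced at P20 (first telogen, the resting phase), P24 (early anagen, the growth phase), P28 (mid-anagen) and P60 (second telogen). At each age there were 3 control and 3 dM1/2 libraries, 24 in all. The dM1/2 mice carried Cor-cre, which is active in the DP, and were homozygous for floxed Hdac1 and floxed Hdac2. Controls were of mixed genotype. All carried Cor-cre and at least 1 floxed allele at Hdac1, at Hdac2 or at both loci, and some were homozygous at a floxed locus, and the labels do not say which genotype each control library has. All mice shared Cor-cre and the YFP reporter and were of mixed FVB and C57BL/6J descent. Xist, the RNA that coats the inactive X chromosome, was between 8113 and 26333 normalized reads in the P20 and P60 libraries and at most 3.91 in the P24 and P28 libraries, so that sex changed together with the telogen and anagen ages.

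These families are best known from the embryo. Msx1 and Msx2 are targets of BMP signaling that act in limb, tooth and skull mesenchyme, and Msx2 is also used by the keratinocytes of the hair bulb. Alx1 and Alx4 pattern the face, and Alx4 also the limb and the skull. Prrx1 and Prrx2 mark limb, facial and dermal mesenchyme. The Dlx genes lie in neighboring pairs, Dlx1 with Dlx2, Dlx5 with Dlx6 and Dlx3 with Dlx4, and act in the jaw, forebrain, bone and, for Dlx3, in hair and skin epithelium. Histone deacetylases remove acetyl groups from histone tails, a change usually associated with lower transcription.

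The promoters of 6 of the 9 members were present in RefSeq's promoter table (GRCm38.p6, 250 bases before the transcript start), and 3 of them are shown: Msx1 and Dlx2, which rose in dM1/2 at P28, and Prrx1, which no comparison called. Sequences are 5′ to 3′ on the strand of the gene and stop where an annotated exon begins. Capitals mark CCAAT, or its reverse complement ATTGG, the letters bound by the general promoter factor NF-Y.
Msx1, minus strand, chr5:37824586-37824835: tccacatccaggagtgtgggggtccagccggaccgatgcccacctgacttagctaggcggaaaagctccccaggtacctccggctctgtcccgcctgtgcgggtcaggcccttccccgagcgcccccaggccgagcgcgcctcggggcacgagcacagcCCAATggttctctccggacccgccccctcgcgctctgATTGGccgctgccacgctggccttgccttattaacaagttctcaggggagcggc
Dlx2, minus strand, chr2:71546755-71547004: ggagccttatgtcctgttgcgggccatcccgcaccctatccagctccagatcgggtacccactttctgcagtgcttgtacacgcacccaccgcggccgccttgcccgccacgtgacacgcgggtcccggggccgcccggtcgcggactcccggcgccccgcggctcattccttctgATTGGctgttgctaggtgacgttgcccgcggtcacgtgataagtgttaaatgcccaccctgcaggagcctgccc
Prrx1, minus strand, chr1:163313711-163313900: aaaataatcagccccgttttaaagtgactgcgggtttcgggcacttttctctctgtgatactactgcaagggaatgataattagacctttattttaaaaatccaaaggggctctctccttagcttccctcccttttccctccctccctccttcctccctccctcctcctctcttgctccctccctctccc
The Msx1 window held 1 CCAAT and 1 ATTGG, the Dlx2 window held 1 ATTGG, and the Prrx1 window held neither. Either word was present in 33.8% of the 32851 promoter windows of the same length. In the full windows of 250 bases, Msx1 had 20 CpG and Dlx2 had 24, compared with 4 in Prrx1 and a median of 6 over all promoters. The windows of Prrx2, Dlx1 and Msx2, which had 21, 22 and 16 CpG, lie within annotated exons and are not shown. Of these, the Msx2 window held 1 CCAAT. No promoter of Alx1, Alx4 or Dlx5 was used here.

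The values are read counts divided by the size factor of each library, called normalized reads, on a scale shared by the 24 libraries. Reads on genes ranged from 11635062 to 13369732 per library at P20, from 35469841 to 49331751 at P24, from 37171260 to 48331795 at P28 and from 8171944 to 9724000 at P60. A library with no read of a gene allows up to 3 reads there, which in normalized reads is 1.01 to 1.51 for P24 libraries, 1.14 to 1.92 for P28, 5.55 to 8.60 for P20 and 6.30 to 7.57 for P60, counting error only. Hdac1 was lower in each dM1/2 library than in each control at P20 and P24, and was called at P24 only (log2 fold change -2.01, adjusted p = 0.00167 by limma). At P28 its levels were 214, 529 and 105 normalized reads in the libraries labelled control 1 to 3 and 190.2, 149 and 126 in those labelled dM1/2, so that all those labelled dM1/2 stood above the library labelled P28 control 3. Genotypes at P28 are those of the labels, and every direction given at P28 rests on them. This library had no read of Dlx2, a gene whose direction itself rests on the label, and the highest sum of DP markers at P28, 572559 normalized reads. Its sums of endothelial and melanocyte markers, 366 and 299 normalized reads, were the lowest at P28, below those of the other controls and of dM1/2. Whether its label is right was not tested. Hdac2 was not called at any age, and reads counted per gene do not show whether floxed exons were lost. All 15 DP markers had reads in every group. Their sum was between 368209 and 424107 normalized reads in P24 controls and between 188555 and 235405 in P24 dM1/2, with 186550 to 572559 and 154713 to 175210 at P28. In telogen it was between 20088 and 74599. In bulk RNA, fewer cells of a type and less RNA per cell cannot be told apart. The sum of 5 markers of other fibroblasts (Pi16, Dpp4, Ly6a, Cd34 and Mfap5) was 26002, 45505 and 3744 normalized reads in P28 controls 1 to 3 and 7704, 13709 and 12074 in the P28 dM1/2 libraries. In P24 control 1 and P60 dM1/2 1 it was 26071 and 119367, in each case over 1.5 times that of the next library of the group, as in P28 control 2.

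Alx4, Prrx1 and Prrx2 were the most abundant members, followed by Msx2 and Msx1, while Dlx5, Dlx2 and Dlx1 had few reads and Alx1 almost none. Levels of different genes are compared here only as normalized reads per kilobase of annotated exon. In P20 controls, Prrx1 stood at 953 ± 30.03, Prrx2 at 486 ± 24.6 and Alx4 at 270.0 ± 113 (mean ± SD, n = 3). In P24 controls Alx4 was the highest member at 2115 ± 190.1, above Prrx1 at 822 ± 63.7 and Prrx2 at 424 ± 51.7. Msx2 followed at 158 ± 35.3 and Msx1 at 34.6 ± 19.0, and the ranges of the 3 libraries did not overlap between any of these neighbors. In P28 dM1/2 the 3 highest members lay close together, with Alx4 at 1139 ± 222, Prrx1 at 962 ± 43.4 and Prrx2 at 909.5 ± 157, and each range overlapped the next. In P28 controls the same genes stood at 2218 ± 1009, 957 ± 43.4 and 279.6 ± 22.1, without overlap between neighbors. In P60 controls the order was again Prrx1, Prrx2 and Alx4, at 1134 ± 83.0, 309 ± 51.1 and 176 ± 7.31. Msx1 and Msx2 overlapped in P20 and P60 controls. Of the listed Dlx genes, Dlx5 was the highest in P24 controls at 3.11 ± 2.13, far below the Msx genes, and its relative Dlx3 stood at 6.51 ± 3.08.

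**Figure D1:**
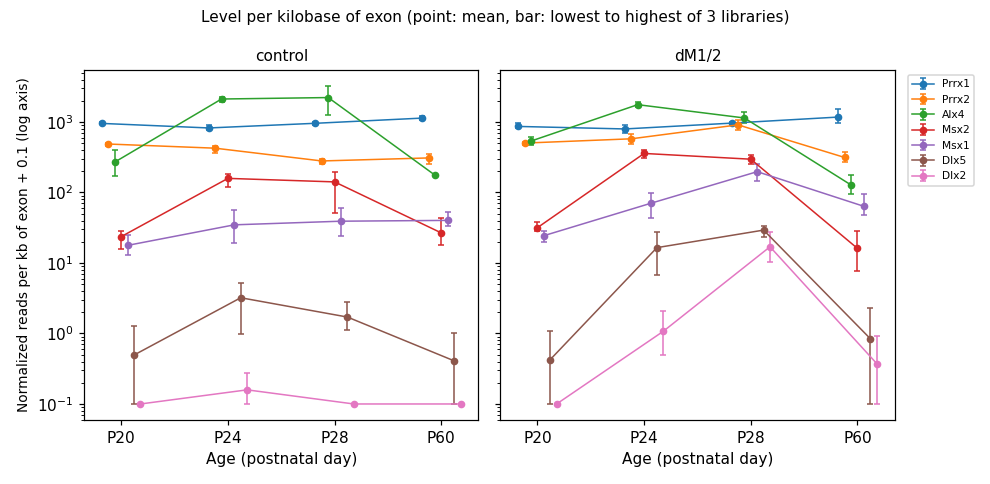
Normalized reads per kilobase of annotated exon plus 0.1 (log axis) against age for 7 members, controls left and dM1/2 right. Points are means of 3 libraries and bars run from the lowest to the highest library. Alx4 is the top line in both anagen control groups, and in P28 dM1/2 Prrx2 comes up to Prrx1 and Alx4.

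dM1/2 was compared with control at each age by limma on log2(normalized reads + 1), among genes that averaged 10 or more normalized reads at that age, and a gene was called at an adjusted p-value under 0.05 (two-sided, Benjamini-Hochberg over all genes tested). At P28, 4 of the 7 members tested were called, Msx1, Prrx2, Dlx2 and Dlx5, and all 4 rose in dM1/2. Dlx2 and Dlx5 reached the mean of 10 only through their dM1/2 libraries, so that they could be tested only where they were higher in dM1/2. Of the other 5 members tested, which were above this mean in controls too, Msx1 and Prrx2 were called. Of all 14126 genes tested at P28, 35.5% were called in either direction. At P24, 1 of the 6 members tested was called, a rise of Msx2, while 26.6% of 14028 genes were called. Dlx5 was among these 6 only through its dM1/2 libraries. At P20, none of the 5 members tested was called by limma, and 0.433% of 13845 genes were. At P60, none of the 5 members tested and 0% of 14042 genes were called by limma. With unadjusted p-values under 0.05 there were 525 genes at P60, and edgeR called 0 and DESeq2 26 genes there, none of them a member. No member had an unadjusted p under 0.05 at P60, and at P20 only Alx4 did. With 3 libraries against 3, an exact two-sided permutation test cannot give a p-value under 0.1, and it gave 0.1 for each member whose groups did not overlap.

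**Figure D2:**
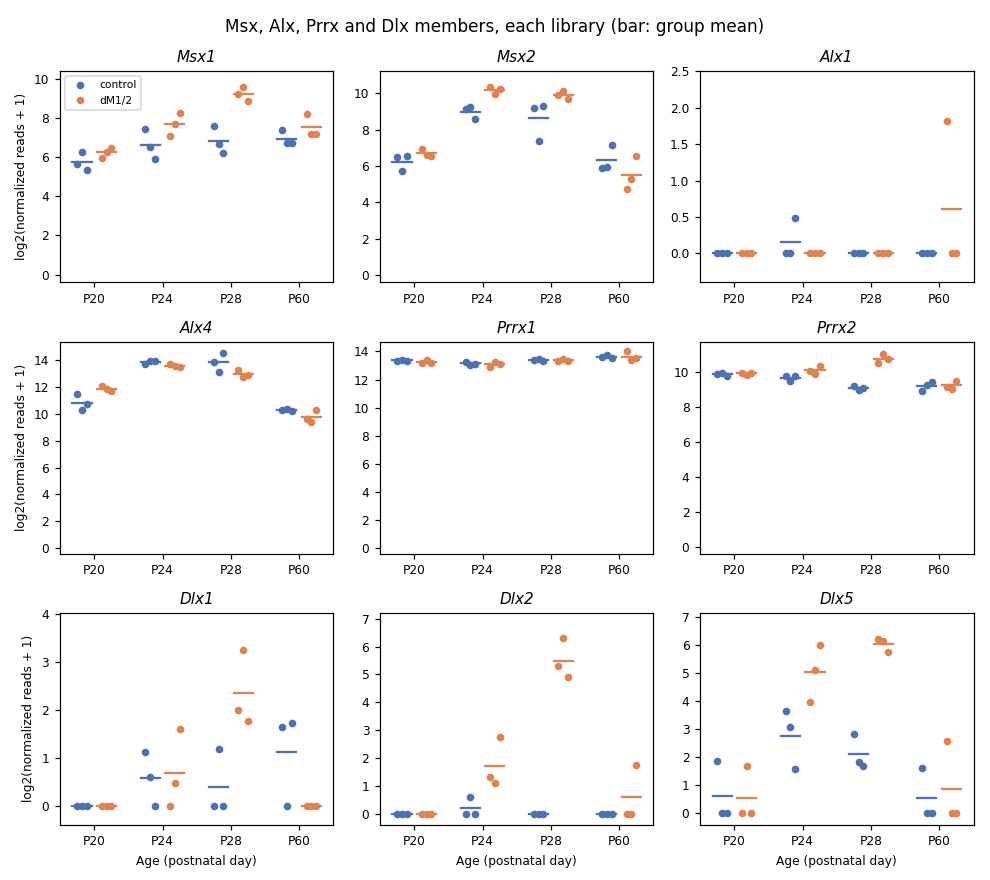
log2(normalized reads + 1) of each of the 9 members in every library, by age, with controls in blue and dM1/2 in orange and a bar at each group mean. At P28 the dM1/2 points of Msx1, Msx2, Prrx2, Dlx2 and Dlx5 lie above all control points, and Prrx1 stays near the same level throughout.

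**Figure D3:**
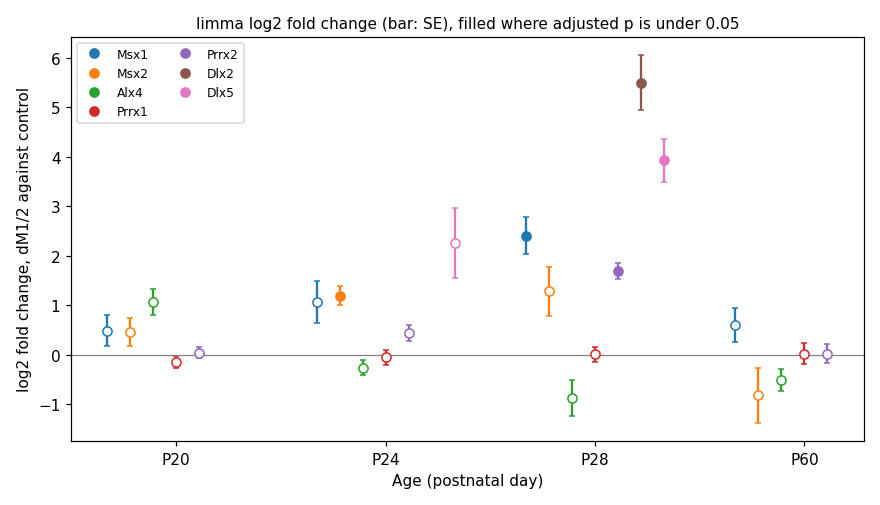
limma log2 fold change of dM1/2 against control with its standard error for each member tested at each age, filled where the adjusted p-value is under 0.05. The filled points are Msx2 at P24 and Msx1, Prrx2, Dlx2 and Dlx5 at P28.

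Msx1 (chromosome 5, 37820485 to 37824583, minus strand, GRCm38), a repressor that keeps mesenchymal progenitors from differentiating in the embryo, rose in dM1/2 at P28. The P28 controls had 189, 101 and 73.2 normalized reads and the P28 dM1/2 libraries had 603, 772 and 456. Every dM1/2 library was above every control, and the log2 fold change was 2.41 (standard error, SE, 0.37, adjusted p = 0.00331 by limma). At P24 the controls had 173, 89.4 and 59.5 and the dM1/2 libraries 135, 206 and 308. The groups overlapped at P24 through control 1, and the log2 fold change was 1.07 (SE 0.43, adjusted p = 0.109 by limma). Without P24 control 1 it was 1.48 and was called (adjusted p = 0.0344, limma). At P20 Msx1 had 48.2, 75.8 and 40.2 in controls and 61.4, 75.2 and 88.8 in dM1/2, and at P60 164, 102 and 106 and 298, 146 and 146. The groups overlapped at both telogen ages, with log2 fold changes of 0.49 and 0.61.

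Msx2 (chromosome 13, 53466884 to 53473074, minus strand), a BMP target of skull and hair follicle, rose at P24. Controls had 561, 608 and 388 normalized reads and dM1/2 had 1316, 1000.5 and 1200.2. The lowest dM1/2 library was above the highest control, and the log2 fold change was 1.19 (SE 0.19, adjusted p = 0.0052 by limma). In the fit over all 24 libraries Msx2 was not called at P24 (adjusted p = 0.0651, limma). At P28 the values were 585, 167 and 636 in controls and 955, 1126 and 832 in dM1/2. The groups did not overlap, but P28 control 2 was far below the other controls, and the log2 fold change of 1.28 (SE 0.49, adjusted p = 0.0857 by limma) was not called. Without control 2 the change at P28 was smaller and was called (log2 fold change 0.66, adjusted p = 0.0207, limma), as it was without control 3 (1.62, adjusted p = 0.0233). At P20 Msx2 had 88.4, 51.4 and 91.8 in controls and 123, 95.2 and 92.5 in dM1/2, narrowly without overlap. At P60 it had 58.8, 62.0 and 141 in controls and 25.2, 37.7 and 94.1 in dM1/2, and the groups overlapped. The log2 fold changes at these ages were 0.45 and -0.82, neither called. In each genotype every anagen library was above every telogen library.

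Prrx2 (chromosome 2, 30834972 to 30881251, plus strand), which shares functions with Prrx1 in limb and face mesenchyme, rose at P28. The controls had 587, 501 and 556 normalized reads, the 3 lowest anagen values of the gene, and dM1/2 had 1512, 2117 and 1722, its 3 highest values among the 24 libraries. The log2 fold change was 1.69 (SE 0.15, adjusted p = 0.000612 by limma). At P24 the controls had 879, 716 and 902 and dM1/2 had 1093, 957 and 1342. These groups did not overlap, and the log2 fold change of 0.44 (SE 0.16, adjusted p = 0.0853 by limma) was not called. At P20 the values ran from 898 to 985 in controls and from 934 to 1014 in dM1/2, and at P60 from 495 to 692 and from 528 to 734. The log2 fold changes there were 0.04 and 0.02.

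Prrx1 (chromosome 1, 163245119 to 163313710, minus strand), a marker of limb and dermal mesenchyme, stood near the same level in all groups. It had 10524, 11100.1 and 10146 normalized reads in P28 controls and 10310.3, 11195 and 10430.2 in P28 dM1/2, which overlapped. Over the 24 libraries it ranged from 7706 in P24 dM1/2 1 to 16652 in P60 dM1/2 1, the library highest in markers of other fibroblasts. The log2 fold changes of dM1/2 against control were -0.15, -0.05, 0.01 and 0.02 from P20 to P60, with standard errors from 0.12 to 0.21. Its sign at P24, P28 and P60 changed with the library left out, and at P28 with DESeq2 and at P60 with TMM scaling.

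Dlx2 (chromosome 2, 71543408 to 71546754, minus strand), a gene of jaw and forebrain development, went from no read in any P28 control to 38.4, 77.1 and 28.9 normalized reads in P28 dM1/2. Against the limit of 3 reads per control library this was at least 33.1-fold higher. The log2 fold change was 5.50 (SE 0.55, adjusted p = 0.0008 by limma), a value that depends on the pseudocount because the controls are at 0. At P24 the controls held 1 read of Dlx2 in all and the dM1/2 libraries 24, a ratio of 20.4 with a 95% exact counting interval from 3.33 to 840.3, and the gene was not tested. In telogen, 11 of 12 libraries had no read of Dlx2, and P60 dM1/2 3 had 1. Its neighbor Dlx1 (71528113 to 71533981, plus strand) did not reach the filter at any age. At P28 Dlx1 had 2 reads over the 3 controls and 33 over the dM1/2 libraries, a ratio of 15.0 with a counting interval from 3.82 to 128.6. Its normalized reads at P28 were 0, 1.28 and 0 in controls and 2.99, 8.57 and 2.41 in dM1/2, without overlap. Without the filter on low values Dlx1 was called at P28. Exons of Dlx1 overlap those of the antisense gene Dlx1as, not analysed here, and the strand setting of the counting was not given in the sources used here, so the reads of Dlx1 may include antisense reads.

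Dlx5 (chromosome 6, 6877805 to 6882085, minus strand), an activator of bone-forming cells, rose at P28. The P28 controls had 6.09, 2.56 and 2.28 normalized reads and dM1/2 had 74.6, 70.3 and 53.0, a wide gap between the groups. The log2 fold change was 3.93 (SE 0.43, adjusted p = 0.00103 by limma). At P24 the controls had 11.6, 7.53 and 1.98 and dM1/2 had 14.9, 33.5 and 62.9. The groups did not overlap, and the log2 fold change of 2.26 (SE 0.71, adjusted p = 0.0518 by limma) narrowly missed the threshold. It was called with a pseudocount of 10, with DESeq2, without P24 control 1 and without P24 dM1/2 1. As at P28, Dlx5 reached the mean of 10 at P24 only through dM1/2, so that it could be tested only where higher in dM1/2. In telogen Dlx5 had at most 2 reads in any library and was not tested.

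Alx4 (chromosome 2, 93642384 to 93681339, plus strand), a regulator of limb, skull and hair follicle development, was not called at any age by limma, and its values leaned in different directions at different ages. At P20 the controls had 2783, 1220.1 and 1715 normalized reads and dM1/2 had 4366, 3627 and 3355. Each dM1/2 library was above each control, with a log2 fold change of 1.06 (SE 0.26, adjusted p = 0.0864 by limma). Without P20 control 1, the highest control, the change was called (log2 fold change 1.38, adjusted p = 0.0129, limma), and it was called with DESeq2. At P24 the values were 13406, 15445 and 15937 in controls and 13405, 12386 and 11456 in dM1/2. No dM1/2 library was above a control, but the lowest control and the highest dM1/2 library were almost equal, and the log2 fold change was -0.26. At P28 they were 14857, 8968 and 23149.9 in controls and 9804, 6819 and 7492 in dM1/2. The groups overlapped through P28 control 2, the control with the highest sum of other-fibroblast markers and the lowest Alx4, and the log2 fold change was -0.87 (SE 0.35, adjusted p = 0.0981 by limma). Without control 2 it was -1.22 and was called (adjusted p = 0.0143, limma), and it was called with DESeq2 and in the fit over all 24 libraries. At P60 Alx4 had 1224, 1301 and 1204 in controls and 790.2, 669 and 1240.2 in dM1/2, which overlapped. Alx4 lies opposite Ext2 on the other strand without sharing exons. Its relative Alx1 (chromosome 10, 102998707 to 103030215, minus strand) had 1 read in P24 control 3 and 1 in P60 dM1/2 1 and none in the other 22 libraries.

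**Figure D4:**
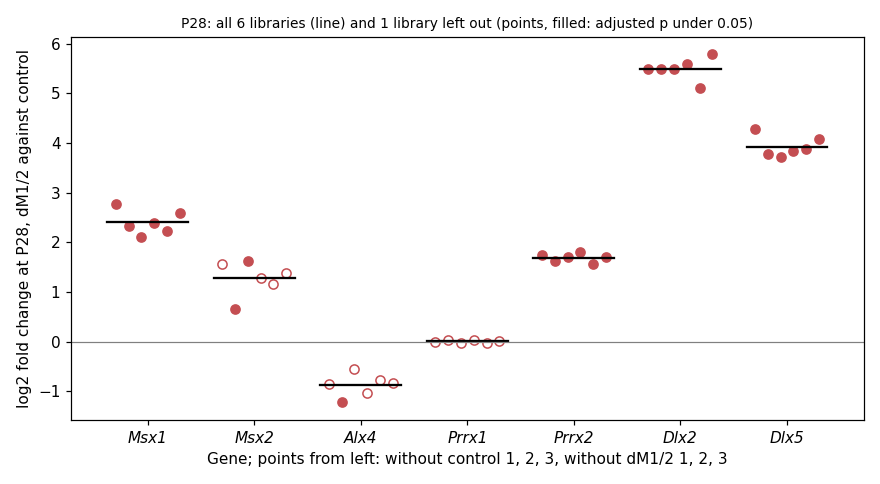
log2 fold change of dM1/2 against control at P28 for the 7 members tested, as a line for all 6 libraries and as points with 1 library left out, filled where the adjusted p-value is under 0.05. All 6 points of Msx1, Prrx2, Dlx2 and Dlx5 are filled, and so are the points without control 2 of Msx2 and Alx4 and that without control 3 of Msx2.

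The P28 calls of Msx1, Prrx2, Dlx2 and Dlx5 held with each of the 6 libraries left out. Without P28 control 2, the library highest in other-fibroblast markers, 6 members were called at P28, with 5156 of 14101 genes called. Of these members, Dlx2 and Dlx5 could be tested only where higher in dM1/2. The summed reads of 9 hair matrix keratinocyte markers were 33 to 61 normalized reads in P28 controls and 238 to 391 in P28 dM1/2. Of this sum in dM1/2, Gata3 made up 228 to 382, the hair keratin Krt31 and the signal Shh were at 0 in all P28 dM1/2 libraries, and Krt35, Krt71, Krt25 and Krt27 were at most 7.71 in any of them. Corin, a DP marker after which the Cre line is named, had 48898 ± 23455 normalized reads in P28 controls and 4532 ± 500.1 in P28 dM1/2 (SD, n = 3 each). The sum of 8 markers of basal and interfollicular keratinocytes was 177 to 319 normalized reads in P28 controls and 125 to 215 in P28 dM1/2. That of 4 markers of dermal sheath and smooth muscle was 3251 to 8722 and 2042 to 4788. The ranges of both sums overlapped between the genotypes. The noncoding RNA Gm26917 took 3.09% to 5.33% of the reads in P28 controls and 7.35% to 10.9% in P28 dM1/2, without overlap, and 1.95% to 7.13% in P24 controls and 5.89% to 9.47% in P24 dM1/2. The part of these differences in the results on the members was not tested.

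Whether the effect of the genotype differed between early and mid-anagen was tested over the 12 anagen libraries. Of 7 members tested, 1 was called, Prrx2, with 0.707% of 14139 genes called. The effect on Prrx2 was larger at P28 by 1.25 (SE 0.23, adjusted p = 0.0392 by limma). The call was kept without P24 control 2 or P28 control 2 and lost in the 10 other fits without 1 library, with log2 differences from 1.12 to 1.38 and adjusted p-values from 0.0395 to 0.125 (limma). The difference for Dlx2 was 3.98 (SE 0.90, adjusted p = 0.0747 by limma), and that for Msx1 was 1.34 (SE 0.63, adjusted p = 0.441 by limma). From P24 to P28, dM1/2 libraries gained Msx1 (log2 fold change 1.54, SE 0.30, adjusted p = 0.0362 by limma) and Dlx2 (log2 fold change 3.78, SE 0.61, adjusted p = 0.0191 by limma), 2 calls among 7 members, with 2.67% of 14032 genes called. Of the 6 fits without 1 library, the call of Msx1 was kept only without P24 dM1/2 3, with adjusted p-values from 0.0122 to 0.165 (limma). That of Dlx2 was lost without P24 dM1/2 1, P28 dM1/2 2 or P28 dM1/2 3, with adjusted p-values from 0.0104 to 0.134 (limma). Dlx2 reached the mean of 10 in this fit and in that of the difference only through the P28 dM1/2 libraries. It could thus be tested in both only where these libraries were high. In controls, none of the 5 members tested was called between P24 and P28 by limma or edgeR, 1.46% of 13966 genes were called, and Prrx2, the only member with an unadjusted p under 0.05, had a log2 fold change of -0.60 (SE 0.14, adjusted p = 0.0888 by limma). These comparisons share libraries and are not independent.

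The genotype effect at the anagen ages was also compared with that at the telogen ages over all 24 libraries, in which sex and depth change together with the stage and cannot be told apart from it. Of 6 members tested, 5 were called, with 30.2% of 14243 genes called. The effect on Prrx2 was more positive in anagen by 1.03 (SE 0.16, adjusted p = 0.000109 by limma), that on Dlx5 by 2.96 (SE 0.83, adjusted p = 0.0108 by limma), that on Msx2 by 1.42 (SE 0.46, adjusted p = 0.025 by limma) and that on Msx1 by 1.19 (SE 0.41, adjusted p = 0.0342 by limma). The effect on Alx4 was more negative in anagen, by -0.84 (SE 0.29, adjusted p = 0.0341 by limma). Prrx2 and Dlx5 were called in all 24 fits without 1 library, Msx2 in 23 (not without P60 control 3), Msx1 in 14 and Alx4 in 12, where adjusted p-values reached 0.0704 for Msx1 and 0.0674 for Alx4 (limma). With edgeR, Prrx2, Msx2 and Alx4 were called and Dlx5 (adjusted p = 0.239) and Msx1 (0.0559) were not. Without the 3 libraries that stood above the rest of their groups in other-fibroblast markers, Msx2 was not called (adjusted p = 0.0611, limma) and the other 4 were. The difference for Prrx1 was 0.04 (SE 0.15, adjusted p = 0.875 by limma).

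The telogens of controls, both from females and of low depth, were compared with each other. At P60, Msx1 was higher than at P20 by 1.18 (SE 0.32, adjusted p = 0.0388 by limma), and Prrx2 was lower, with -0.67 (SE 0.15, adjusted p = 0.023 by limma). These were 2 of 5 members tested, with 12.6% of 13900 genes called. Of the 6 fits without 1 library, the call of Msx1 was kept only without P20 control 2 and that of Prrx2 only without P20 control 1 or P60 control 3, where adjusted p-values ran from 0.0267 to 0.141 for Msx1 and from 0.0286 to 0.0774 for Prrx2 (limma). Markers of other fibroblasts summed to between 40585 and 65015 normalized reads in P20 controls and to between 60775 and 74492 in P60 controls, and their part in this comparison was not tested.

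Relatives of the members were followed in the same way. Msx3, which in the embryo is confined to the neural tube, had 0, 0 and 0.758 normalized reads in P28 controls and 32.4, 46.7 and 40.9 in P28 dM1/2. It was called, and 2 reads in all controls compared with 287 in dM1/2 gave a ratio of 130.0 with a 95% exact counting interval from 35.7 to 1079. Dlx3, an epithelial and bone regulator, had 3.91, 3.20 and 2.65 in P28 controls and 59.7, 78.8 and 41.8 in dM1/2, without overlap, a log2 fold change of 3.81 (SE 0.39, adjusted p = 0.000846 by limma). It also rose at P24, from 13.2, 11.5 and 26.2 to 45.1, 43.4 and 57.2 (log2 fold change 1.54, SE 0.38, adjusted p = 0.0217 by limma). Its neighbor Dlx4 rose at P28 from 3.48, 0.64 and 4.93 to 19.2, 23.1 and 15.7 (log2 fold change 2.51, SE 0.61, adjusted p = 0.0185 by limma). At P28, Msx3, Dlx3 and Dlx4 reached the mean of 10 only through their dM1/2 libraries, so that they could be tested only where higher in dM1/2. Exons of Dlx4 overlap an antisense gene. Dlx6 had at most 9.53 and Prrxl1 at most 15.2 normalized reads in any library and neither was tested. Dlx1as and Dlx6os1 were not analysed here.

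**Figure D5:**
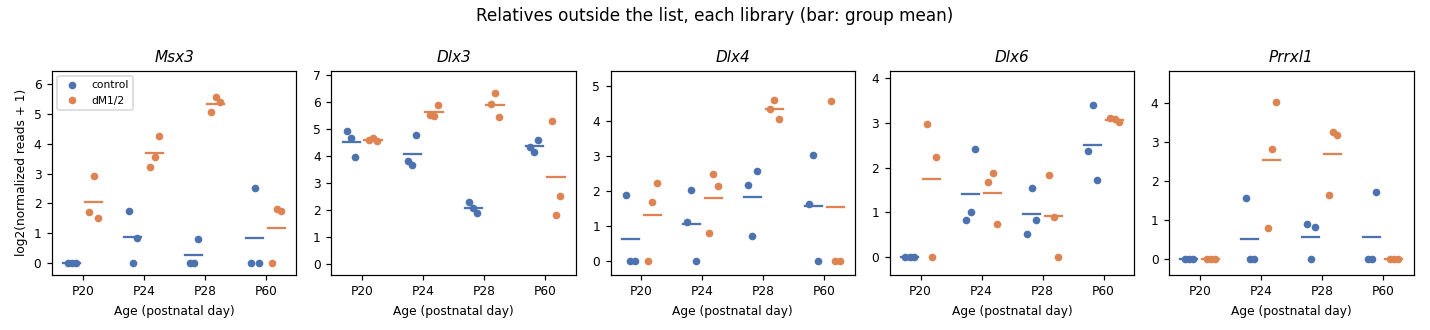
log2(normalized reads + 1) of 5 relatives outside the list in every library, by age, with controls in blue and dM1/2 in orange and a bar at each group mean. Msx3, Dlx3 and Dlx4 of dM1/2 lie above all controls at P28.

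Genes of the pathways in which these factors act were read from lists chosen for this purpose with earlier results of these data known. Each list is described by its counts. Of 20 genes of BMP signaling and its feedback, 19 were tested at P28, of which 4 rose and 4 fell, with a median log2 fold change of -0.09. Over all genes 35.5% were called at P28, so that these counts are near the share of all genes. The largest rises were those of the BMP antagonist Grem1 (log2 fold change 4.14, adjusted p = 0.0137), the BMP-responsive Smad9 (log2 fold change 1.94, adjusted p = 0.00172) and the ligand Bmp2 (log2 fold change 1.74, adjusted p = 0.00186). The largest falls were those of Smad1 (log2 fold change -0.50, adjusted p = 0.0324) and of the receptors Acvr1 (log2 fold change -0.47, adjusted p = 0.0156) and Bmpr1a (log2 fold change -0.38, adjusted p = 0.035). Grem1 varied widely in P28 controls, with 366.7 ± 496.4 normalized reads compared with 3184 ± 240.4 in dM1/2 (SD, n = 3 each). At P24, 5 of 20 rose and 4 fell, where 26.6% of all genes were called in either direction. At P20 and P60 none of 19 passed the test.

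Of 41 mesenchymal transcription factors that act beside these families, 36 were tested at P28, of which 14 rose and 5 fell, with a median of 0.21. Of all 14126 genes tested at P28, 2820 rose and 2198 fell. The largest rises were those of Barx1, Tbx2 and Sox9. Barx1, a jaw and stomach mesenchyme factor, had no read in P28 controls and 27.7 ± 3.83 normalized reads in dM1/2 (SD, n = 3), at least 19.0-fold higher. Tbx2 had a log2 fold change of 4.57 (adjusted p = 0.00113 by limma). Sox9, a factor of cartilage and of the hair follicle bulge, had 3.92 (adjusted p = 0.0007 by limma). The largest falls were those of Pax1 (log2 fold change -3.05, adjusted p = 0.00962), Tbx5 (log2 fold change -1.69, adjusted p = 0.012), the forelimb gene, and Osr1 (log2 fold change -1.48, adjusted p = 0.0198). At P24, 5 of 34 rose and 7 fell, where 26.6% of all genes were called, and at P20 only Sox18 of 35 passed the test, upward. Of 10 osteoblast genes, 6 were tested at P28 and 1 rose, the bone matrix protein Ibsp (log2 fold change 6.90, adjusted p = 0.000457), which had 6 reads over all P28 controls and 1640 over dM1/2. Barx1 and Ibsp reached the mean of 10 at P28 only through dM1/2, so that they could be tested only where higher in dM1/2. At P24, 1 of 6 osteoblast genes rose and 3 fell, where 26.6% of all genes were called in either direction. Of 11 TALE homeobox genes, whose products bind DNA together with other homeodomain proteins, 10 were tested at P28. Tgif1 (log2 fold change 1.18, adjusted p = 0.0161) and Tgif2 (log2 fold change 1.03, adjusted p = 0.0211) rose. None of the osteoblast and TALE genes passed the test at P20 or P60.

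The protein-coding genes whose log2(normalized reads + 1) followed each called member most closely over the 24 libraries, among 13741 genes, are given as a description. All libraries share the genotype and age groups, so that a gene that changes with age or genotype is like any other that does. For Msx1 they were Phlda3, Rpl22 and Snx20, with Pearson's r of 0.88, 0.88 and 0.87. For Msx2 they were Adgrb1, Soga3 and Cacng7 (0.97, 0.97 and 0.96), and for Prrx2 Hnrnpa1, Tcp1 and Cdk2ap1 (0.93 each). For Dlx2 they were Tlx1, Igf2 and Dusp6 (0.94, 0.92 and 0.91), and for Dlx5 Oscp1, Diablo and Rimbp2 (0.93, 0.93 and 0.92).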

How the data were processed

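RNA of YFP+ DP cells of single mice was depleted of ribosomal RNA and sequenced as single-end, strand-specific libraries. After trimming (Trimmomatic), the authors used TopHat2 for alignment to mm10, counted them per Ensembl GRCm38.p4 gene with HTSeq and normalized them with DESeq2. The strand setting of the counting was not given in the sources used here. The deposited signal values are reads divided by a size factor per library, and 100% of them were whole reads within 0.01 read once the factor was recovered. The deposited tables also hold the fold changes and p-values of the authors' own comparisons, which were not used.

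The main test was limma 3.58.1 (trend, R 4.3.3) on log2(normalized reads + 1), for genes with a mean of at least 10 over the libraries of each fit, with Benjamini-Hochberg adjustment over all genes tested and a threshold of 0.05. Values per member were also compared by exact permutation tests. Alternatives were edgeR 4.0.16 and DESeq2 1.42.0 on the recovered reads, other pseudocounts, filters, thresholds and scalings, a fit over all 24 libraries, a replicate block and leaving out each library. Chosen after seeing the data were edgeR and the leaving out of libraries for the comparisons over ages, and the joint removal of the 3 libraries whose sum of other-fibroblast markers was over 1.5 times that of the next library of the group. Scripts were tested on simulated data. Of the 25755 genes, 25431 matched GENCODE annotation of GRCm38, from which positions and exon lengths come. Promoters are from RefSeq. Python 3.11.15, pandas 2.3.3 and scipy 1.17.1 were used. Counting intervals are exact, and like the limit of 3 reads they cover counting error only.

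The members and lists were chosen with earlier results of these data known. Named were all members, relatives and neighbors, Hdac1, Hdac2, markers, and of each list up to 3 of the largest rises and falls called at P28. Per the study's methods, cells came from individual mice. No pair of libraries within a group was a copy, by the mean chi-square per gene of their reads. Its lowest value was 10.39, for P20 controls 2 and 3, and no p-value was computed. Some relatives and list genes are not reported here.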

Additional observations from a re-analysis of the deposited data

Results flagged for a closer look

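The effect of the genotype differed between the anagen and the telogen ages for 5 members by an interaction contrast in limma over all 24 libraries. The anagen effect minus the telogen effect was 1.19 on the log2 scale for Msx1, 1.42 for Msx2, 1.03 for Prrx2, 2.96 for Dlx5 and -0.84 for Alx4. In the same contrast 30.2% of all genes were called. Dlx5 passed the filter there only through its high values in anagen dM1/2. With edgeR, Dlx5 (adjusted p = 0.239) and Msx1 (adjusted p = 0.0559) were not called, and of the 24 limma fits without 1 library, 14 called Msx1 and 12 called Alx4. For Alx4 the values of dM1/2 were higher at P20 and lower at P28, whereas for Msx2 they were higher at P20, P24 and P28 and lower at P60. The difference for Prrx2 between P24 and P28 was 1.25 by the same kind of contrast over the 12 anagen libraries. The libraries of both telogen ages were female by Xist and of lower depth, and those of both anagen ages male, and stage, sex and depth cannot be told apart.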

How the results depend on the processing

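The 4 members called at P28 were called by edgeR, DESeq2 and with the replicate block as well. Over all genes, the 60 calls at P20 were 627 with DESeq2 and 23 in the fit over all 24 libraries, and the 0 at P60 were 26 and 19. Counts of members called moved as follows. At P20 the count was 1 with DESeq2 and 1 with the replicate block (Alx4), and at P24 it was 2 with a pseudocount of 10 and 2 with DESeq2 (Dlx5 and Msx2). In the fit over all 24 libraries the call at P24 was Prrx2 and not Msx2, and at P28 Dlx2 could not be tested there. With a mean of at least 50 the count was 2 at P28 and 1 for dM1/2 from P24 to P28, since Dlx2 and, at P28, also Dlx5 were no longer tested. At an adjusted p under 0.01 it was 0 for dM1/2 from P24 to P28, 0 for the difference between P24 and P28, 0 for P60 against P20 in controls and 1 for anagen against telogen. The difference between P24 and P28 gave 2 with a pseudocount of 10 and 2 without the filter (Dlx2 and Prrx2), and 0 without the 3 libraries high in other-fibroblast markers. P60 against P20 in controls gave 1 without the filter, 1 with a minimum change of 1 on the log2 scale and 0 with the replicate block. Anagen against telogen gave 3 with edgeR. Without 1 library the counts ran from 0 to 1 at P20, from 1 to 3 at P24, from 4 to 6 at P28, from 0 to 0 at P60, from 0 to 0 for P28 against P24 in controls, from 0 to 3 in dM1/2, from 0 to 1 for the difference, from 0 to 2 for P60 against P20 and from 3 to 5 for anagen against telogen. The cause was not tested.

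Values that changed sign were uncalled. They were -0.0077 for Prrx1 at P28 with DESeq2, -0.00370 for Prrx1 at P60 and -0.00661 for Prrx2 at P60 with TMM-scaled log2-CPM, -0.00633 for Prrx2 at P60 with edgeR, 0.0699 for Alx4 from P24 to P28 in controls with edgeR, and, for the difference of Msx2 between P24 and P28, -0.10 with edgeR and -0.60 without the 3 libraries. Without 1 library, Prrx1 ran from -0.14 to 0.0409 at P24, from -0.0293 to 0.0419 at P28 and from -0.17 to 0.15 at P60, and Prrx2 from -0.12 to 0.12 at P60. From P24 to P28 in controls, Msx1 ran from -0.18 to 0.61, Msx2 from -0.70 to 0.26 and Alx4 from -0.37 to 0.32. The difference between P24 and P28 ran from -0.53 to 0.43 for Msx2 and from -0.0334 to 0.15 for Prrx1. P60 against P20 ran from -0.30 to 0.32 for Msx2, and anagen against telogen from -0.0238 to 0.14 for Prrx1. Of the member values under all alternatives, 779 kept direction and call, 21 were newly called, 69 lost the call and 30 changed sign.

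Deviations of same-numbered control and dM1/2 libraries from their group means had correlations from -0.40 to 0.34. At P20 these were 0.23, 0.08 and 0.12, each above the best with another number (-0.11, 0.07 and 0.04). At P60 this held for numbers 1 and 3, and at P24 and P28 for none. The labels do not say whether the numbers pair the samples, and the replicate block is given as an alternative only. Depth at P20 and P60 limits the Dlx genes, for which 3 reads are up to 8.60 normalized reads.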
